A study of Mus musculus with 6 samples.

Results

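The interferon-stimulated and cytosolic sensing genes described here are 44 mouse genes taken by name from a list, out of 25860 genes in the count table. All 44 were found, 42 under their listed symbol and 2 under their present one (Mb21d1, now Cgas, and Tmem173, now Sting1). They were measured by RNA-seq of normal-looking lung from 3 RAG1-/- mice (replicates 1 to 3) and from 3 RAG1-/- Sgo1-/+ animals (replicates 4 to 6), all 12 months old and untreated, bred from a cross of the 2 single mutants. By their labels both groups lack RAG1, the recombinase without which mature B and T cells do not form. The second group also lacks 1 allele of Sgo1, which encodes the shugoshin protein that guards cohesin at centromeres, and such mice serve as a model of chromosome instability. The comparison asks which lung transcripts differ with the loss of that allele. The tissue was whole lung, so fewer cells of a type and less RNA per cell cannot be told apart.

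Cytosolic sensors bind RNA or DNA that is out of place. RIG-I-like helicases bind RNA and signal through MAVS, and cGAS binds DNA and signals through STING. Both routes activate interferon genes, and secreted interferon then acts through its receptors, JAK kinases and a complex that holds STAT2 and IRF9. That complex binds the interferon-stimulated response element (ISRE) of genes that limit viral replication. DNA from missegregated chromosomes is a known ligand of cGAS, which makes this gene group of interest in a chromosome instability model.

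The ISRE is built on 2 GAAA blocks that are 2 bases apart (GAAANNGAAA, or TTTCNNTTTC on the other strand). This core was searched on both strands in RefSeq promoter windows of 300 bases, 250 before and 50 after a transcript start, on GRCm38.p6. Of the 44 members, 33 had a window and 17 of these held the core (51.5%), beside 485 of 12649 tested genes with a window (3.83%). Per role, 4 of 4 GTPase genes with a window held it, 5 of 8 RNA-directed effectors, and 0 of 4 in the group of other interferon-stimulated genes. The shorter gamma-activated site (TTCNNNGAA, which reads alike on both strands and may overlap the core) was in 8 of the 33 (24.2%), beside 8.35% of the genes with a window. A match is a description of these letters and not of binding. The stretches below were chosen after the values were seen. Those of the GTPases are shown because all 4 with a window held the core, that of Oas1a because its level spread 4.17-fold between the RAG1-/- Sgo1-/+ libraries, and those of Isg15 and Ifit1 because their group means were similar. Capitals mark the core, or overlapping cores, and each stretch runs 5′ to 3′ on the gene's strand.

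Gbp2 (chr3:142620589-142620628, plus strand): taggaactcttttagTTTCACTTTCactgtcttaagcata
Gbp3 (chr3:142559984-142560029, plus strand): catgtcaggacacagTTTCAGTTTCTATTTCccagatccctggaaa
Igtp (chr11:58199507-58199546, plus strand): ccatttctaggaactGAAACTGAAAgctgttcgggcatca
Irgm1 (chr11:48871421-48871465, minus strand): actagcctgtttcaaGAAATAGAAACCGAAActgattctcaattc
Oas1a (chr5:120907526-120907560, minus strand): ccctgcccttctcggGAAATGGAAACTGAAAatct
Isg15 (chr4:156200860-156200911, minus strand): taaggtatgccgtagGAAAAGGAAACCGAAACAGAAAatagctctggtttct
Ifit1 (chr19:34640789-34640828, plus strand): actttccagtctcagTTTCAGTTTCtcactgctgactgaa

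The Isg15 stretch holds 3 overlapping cores, those of Gbp3, Irgm1 and Oas1a hold 2 each, and those of Gbp2, Igtp and Ifit1 hold 1. The whole Ifit1 window holds 2 cores, and the other, 104 to 95 bases before the start, is not printed. The core of Igtp lies 34 to 25 bases before the start, and that of Gbp2 59 to 50 bases before it. No core was found in the windows of Mb21d1, Irf7 or Lgals3bp, and Parp14 and Zbp1 had no window in the table.

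Total counts on genes ran from 3205822 to 9366774 per library, so that 3 counts stood for 0.320 to 0.936 CPM (counts scaled to a library total of 1000000). Sgo1 had 0 to 6 counts in each library and Rag1 8 to 24, too few to check the genotypes. Lung markers were high in all 6 libraries, with 12425 to 20390 CPM of Sftpc, which encodes a surfactant protein. The library labelled RAG1-/- replicate 2 summed to 608 CPM over 5 B and plasma cell markers (Igkc 374 CPM), against 1.28 CPM or less elsewhere. Such transcripts go against its label, and its genotype is in doubt. Over 3 T cell markers, all with few counts, the sum was 12.1 CPM in that library. It was 7.80 CPM in RAG1-/- Sgo1-/+ replicate 6, 2.04 CPM in replicate 5 and 0.43 CPM or less elsewhere. T cell transcripts go against the label of replicate 6 as well, on 11 counts of Cd3e, 12 of Cd8a and 2 of Cd3d. Its B and plasma cell markers summed to 0 CPM. In addition, RAG1-/- replicate 1 alone had high Xist, a transcript of female cells (7717 counts, others 4 to 8). The paper used mice of both sexes, and the labels give no sex. By this transcript the groups were not matched for sex, and its part in the results was not tested. RAG1-/- Sgo1-/+ replicate 6 was the shallowest library and held the most Cd68, a macrophage marker. Results are therefore also given without these libraries.

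None of the 44 members passed an adjusted *P* under 0.05 and at least 2-fold, thresholds taken from the study and applied here to edgeR's quasi-likelihood test. All 44 passed the filter of 10 counts over the 6 libraries, with at least 62 counts each, and the share called among all 17231 tested genes was 0.0% as well. The paper reported genes up and down between these groups at its thresholds, an outcome that the test used here did not reproduce. At an unadjusted *P* under 0.05, 3 members were higher in RAG1-/- Sgo1-/+ (Mb21d1, Lgals3bp and Parp14, 3 of 44), beside 3.15% of all tested genes, and 0 were lower, beside 2.52%. In 3 members every RAG1-/- Sgo1-/+ library lay above every RAG1-/- library (Mb21d1, Parp14 and Dtx3l), beside 6.24% of tested genes, and in 0 every library lay below, beside 5.54%. DESeq2 and limma-voom likewise called 0 members and gave the same 3 at the unadjusted threshold. With 44 members, the background shares correspond to 1 to 3 genes, so these counts were near the background.

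The fold changes were small around a median near 0. The median log2 fold change was 0.07 over the members and 0.03 over all tested genes, and 29 of 44 members (65.9%) had a positive value, as had 54.9% of all genes. Values ran from -0.39 (Ifi44) to 1.04 (Mb21d1). The median rested on RAG1-/- Sgo1-/+ replicate 6, since without it the median was -0.02 and 20 of 44 values were positive, as were 52.6% of all genes. Without RAG1-/- Sgo1-/+ replicate 4 it was 0.15, with 33 of 44 positive.

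**Figure D1:**
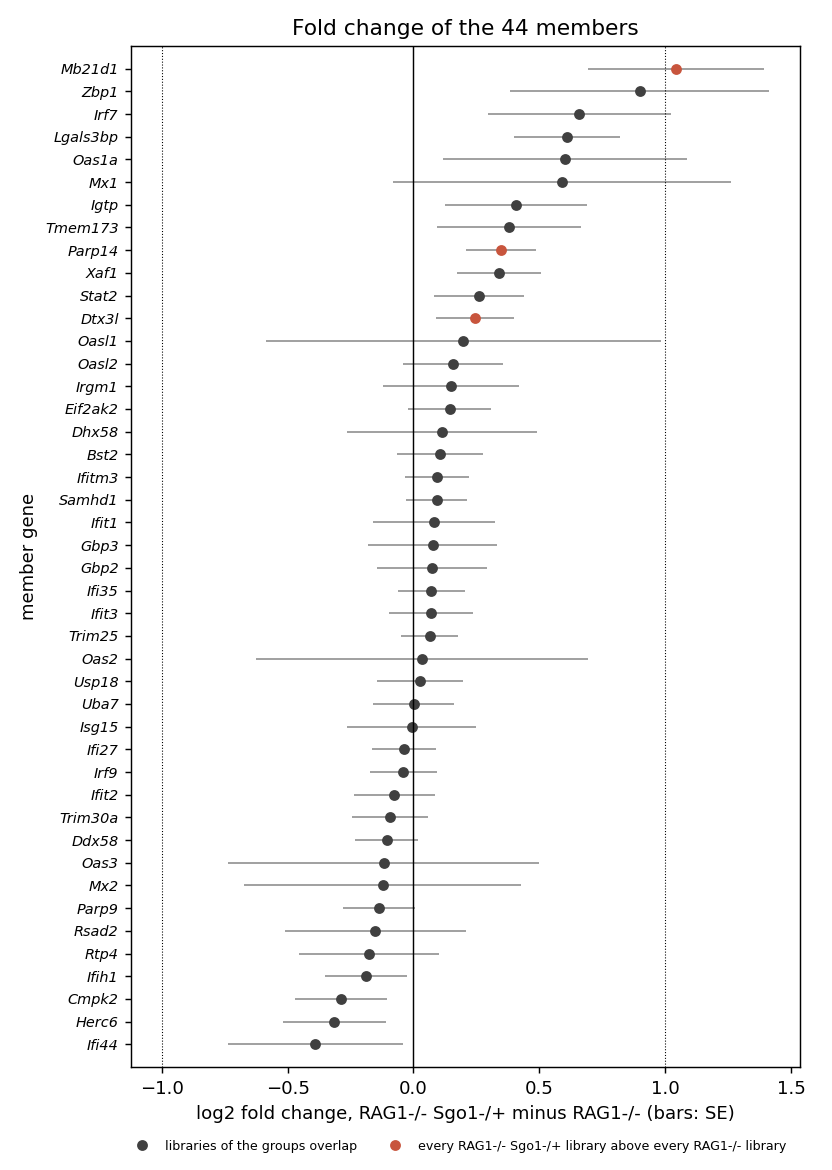
Log2 fold change (RAG1-/- Sgo1-/+ minus RAG1-/-) of the 44 members in order of size, with bars of 1 SE and dotted lines at 2-fold. Red points mark Mb21d1, Parp14 and Dtx3l, whose groups did not overlap, and Mb21d1 alone passed the 2-fold line.

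The number of members higher at an unadjusted *P* under 0.05 depended on single libraries, and the share over all tested genes moved as well. It was 4 without RAG1-/- replicate 1 (3.65% of all tested genes), 1 without replicate 2 (1.81%) and 2 without replicate 3 (1.84%). It was 9 without RAG1-/- Sgo1-/+ replicate 4 (5.32%), 1 without replicate 5 (2.88%) and 1 without replicate 6 (2.52%). Which library was left out thus moved the count both up and down. With both RAG1-/- replicate 2 and RAG1-/- Sgo1-/+ replicate 6 left out it was 0 (1.74%). Members without overlap upwards numbered 13 without replicate 4, or 29.5% of the 44 beside 14.99% of tested genes. They numbered 6 without RAG1-/- replicate 1 and 6 without replicate 3, or 13.6% beside 12.5% and 10.01% of tested genes, which is near the background. Downwards they numbered 3 without replicate 6 (10.3% of tested genes) and 4 without replicate 5 (10.6%). Without both RAG1-/- replicate 2 and RAG1-/- Sgo1-/+ replicate 6 they numbered 6 (15.3%). These numbers are below the 5 to 7 members that these shares give.

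The members spread more within RAG1-/- Sgo1-/+ than within RAG1-/-, a difference in spread that was not tested. The mean of log2(CPM + 1) over the 44 members stood at 4.95, 4.76 and 4.83 in the RAG1-/- libraries (mean 4.85±0.10, SD, *n*=3). In RAG1-/- Sgo1-/+ it was 4.60, 4.99 and 5.23 (mean 4.94±0.32, SD, *n*=3), so that this group held both the lowest and the highest library. The difference of 0.09 was under either group's spread, and without RAG1-/- Sgo1-/+ replicate 6 it was -0.05. Over all tested genes the same mean only ran from 4.13 to 4.20.

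The order of the libraries was shared by many members. RAG1-/- Sgo1-/+ replicate 6 was the highest library in 20 of 44 members (45.5%) and in 25.4% of all tested genes. RAG1-/- replicate 1 was the highest in 11 members (25.0%) and in 11.1% of all genes. RAG1-/- Sgo1-/+ replicate 4 was the lowest library in 19 of 44 members (43.2%) and in 17.5% of all genes. Replicate 6 exceeded replicate 4 in 33 of 44 members, and replicate 5 exceeded it in 37, where in all genes these shares were 50.9% and 50.9%. These are 3 mice of 1 genotype, and the comparison of single libraries has no replicates.

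**Figure D2:**
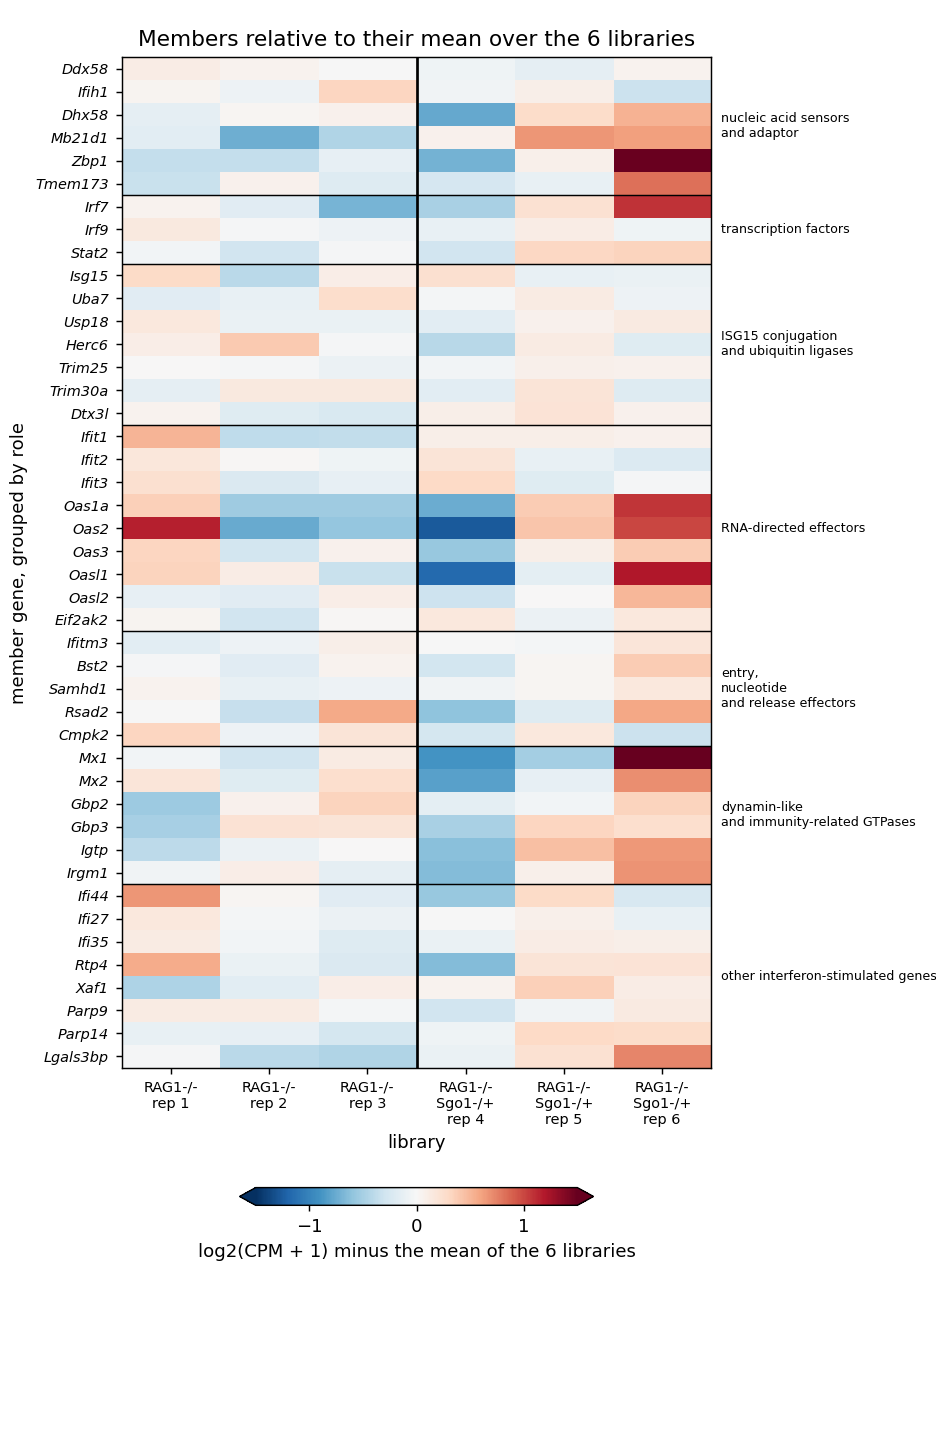
Level of each member in each library as log2(CPM + 1) minus the mean of the 6 libraries, in rows by role. The column of RAG1-/- Sgo1-/+ replicate 4 is mostly blue (low, lowest library in 19 of 44 members) and that of replicate 6 mostly red (high, highest in 20 of 44).

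The cytosolic sensors and their adaptor were led by Mb21d1, which encodes the DNA sensor cGAS. It had 44, 14 and 24 counts in RAG1-/- and 28, 49 and 28 in RAG1-/- Sgo1-/+, which are 4.70, 2.83 and 3.63 CPM against 5.66, 9.08 and 8.73 CPM. Every RAG1-/- Sgo1-/+ library lay above every RAG1-/- library, at a mean of 7.82±1.88 against 3.72±0.94 CPM (SD, *n*=3). The log2 fold change was 1.04 (SE 0.35), which did not pass the test over all genes (adjusted *P*=0.832). The exact permutation test gave *P*=0.1, the smallest that 3 against 3 libraries allow. It passed the unadjusted threshold in 5 of the 6 fits with 1 library left out, the exception being without RAG1-/- Sgo1-/+ replicate 5.

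Tmem173 and Zbp1 were high in a single library. Tmem173 encodes STING, the adaptor that cGAS activates through its cyclic dinucleotide product. It stood at 16.8, 22.4 and 18.6 CPM in RAG1-/- and at 17.8, 19.6 and 38.7 CPM in RAG1-/- Sgo1-/+, with a log2 fold change of 0.38 (with SE 0.29, edgeR adjusted *P*=0.860). Zbp1, a sensor of left-handed nucleic acid that can trigger necroptosis, stood at 5.66, 5.66 and 6.81 CPM against 4.24, 7.97 and 22.8 CPM (log2 fold change 0.90 with SE 0.51, edgeR adjusted *P*=0.834). In both genes replicate 6 was the highest library, and the other 2 RAG1-/- Sgo1-/+ libraries lay within or near the RAG1-/- range. Without replicate 6 the log2 fold change was -0.03 for Tmem173 and 0.02 for Zbp1.

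The RNA sensors differed little between the groups. Ddx58, which encodes RIG-I, was at 50.1, 48.1 and 46.3 CPM in RAG1-/- and at 44.2, 42.2 and 48.0 CPM in RAG1-/- Sgo1-/+ (log2 fold change -0.11 with SE 0.12, edgeR adjusted *P*=0.905). Ifih1, which encodes MDA5, was at 45.6, 42.0 and 55.8 CPM against 42.8, 47.4 and 35.2 CPM (log2 fold change -0.19 with SE 0.16, edgeR adjusted *P*=0.874). The groups overlapped in both, and neither differed beyond the spread of the libraries. Without RAG1-/- replicate 3 or RAG1-/- Sgo1-/+ replicate 6, Ddx58 lay lower in RAG1-/- Sgo1-/+ without overlap. Of all tested genes, 8.51% and 10.3% did so in these settings. Dhx58, which encodes the regulatory helicase LGP2, ran from 3.64 CPM in replicate 4 to 10.3 CPM in replicate 6, with the RAG1-/- libraries between them.

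Among the transcription factors, Irf7 varied and Irf9 did not. Irf7 is an interferon-induced factor that amplifies interferon gene transcription. Its level was 21.6, 18.4 and 12.4 CPM in RAG1-/- and 14.5, 24.6 and 45.2 CPM in RAG1-/- Sgo1-/+ (log2 fold change 0.66 with SE 0.36, edgeR adjusted *P*=0.832), again with the highest value in replicate 6, without which the log2 fold change was 0.16. Irf9, the DNA-binding part of the STAT complex, lay between 48.3 and 58.3 CPM in all 6 libraries. Stat2, its partner, was at 51.9, 43.6 and 52.8 CPM against 43.8, 66.9 and 67.7 CPM (log2 fold change 0.26 with SE 0.18, edgeR adjusted *P*=0.855), where replicates 5 and 6 were above the RAG1-/- range and replicate 4 was within it.

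**Figure D3:**
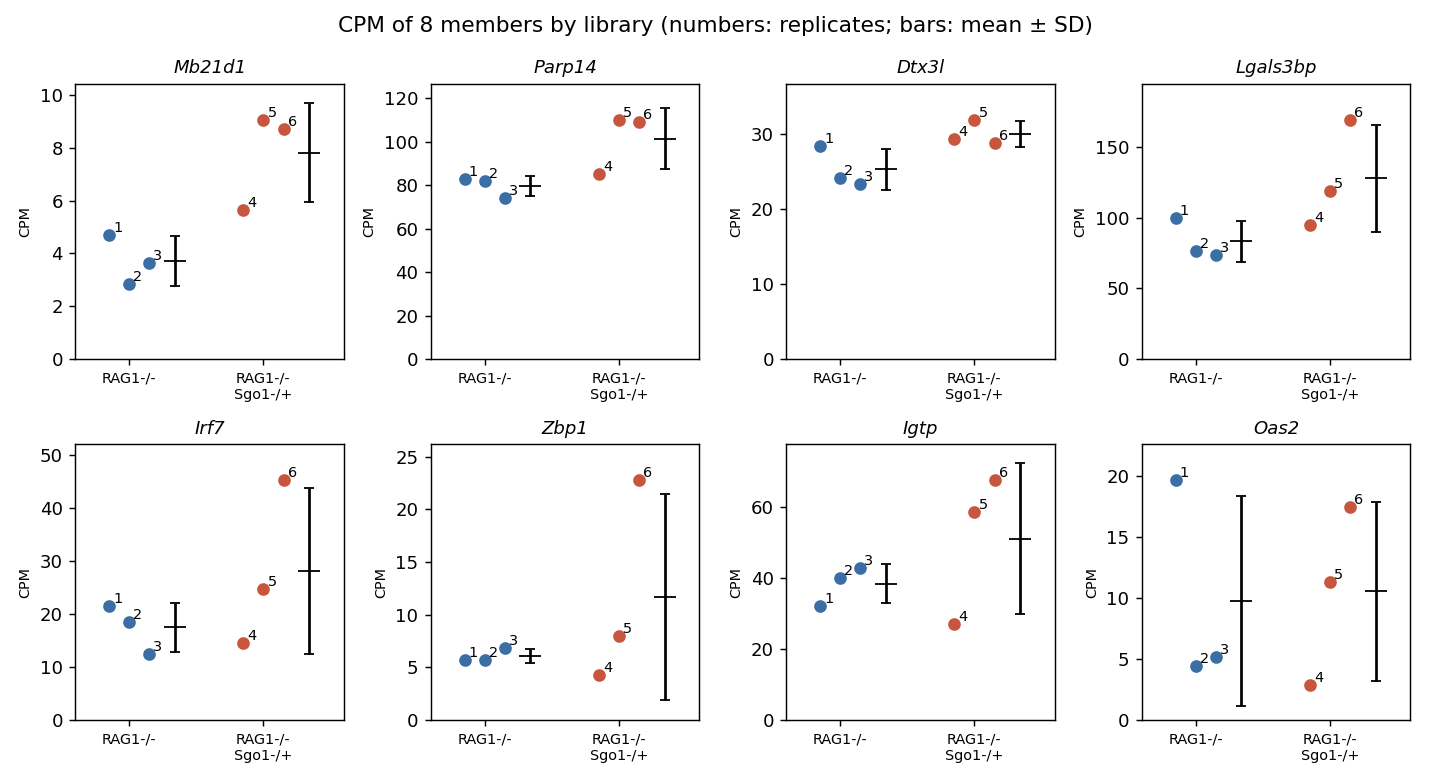
CPM of 8 members in each library, with replicate numbers beside the points and the mean±SD of 3 libraries as a bar at the right of each group. The groups are apart in Mb21d1, Parp14 and Dtx3l and overlap in the other panels. In all panels but Mb21d1 and Dtx3l the 3 RAG1-/- Sgo1-/+ libraries span more than the difference between the means.

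ISG15 and the genes of its conjugation were level between the groups. Isg15 encodes the ubiquitin-like modifier and was at 14.9, 8.89 and 13.01 CPM in RAG1-/- and at 14.5, 11.1 and 11.2 CPM in RAG1-/- Sgo1-/+. The log2 fold change of Isg15 was -0.01 (with SE 0.25, edgeR adjusted *P*=0.997), and its promoter window holds the 3 overlapping cores printed above. Uba7, the E1 enzyme of ISG15, and Usp18, the protease that removes it, had log2 fold changes of 0.00 (SE 0.16) and 0.03 (SE 0.17). Herc6, the mouse ISG15 ligase, ran from 15.2 to 27.5 CPM with the groups overlapping. This was the role with the least variation, since its mean log2(CPM + 1) ran only from 5.03 to 5.20 over the 6 libraries.

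Of the ubiquitin ligases, Dtx3l was the one whose groups did not overlap. Dtx3l is an E3 ligase that works as a complex with PARP9 in DNA damage and interferon responses. It stood at 28.4, 24.0 and 23.3 CPM in RAG1-/- and at 29.3, 31.9 and 28.7 CPM in RAG1-/- Sgo1-/+ (log2 fold change 0.24 with SE 0.15, edgeR adjusted *P*=0.847, and *P*=0.1 by exact permutation). The gap between the nearest libraries was small, and with TMM or DESeq2 size factors the groups overlapped. Its partner Parp9 was at 59.5, 59.4 and 53.3 CPM against 44.6, 52.4 and 59.9 CPM, with the groups overlapping. Trim25, which ubiquitinates RIG-I, was among the most abundant members at 119.7 to 133.9 CPM in all libraries (log2 fold change 0.06 with SE 0.11, edgeR adjusted *P*=0.945). Trim30a lay between 51.5 and 67.2 CPM.

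The RNA-directed effectors fell into a level group and a varying one. Ifit1, Ifit2 and Ifit3 encode proteins that bind foreign RNA 5′ ends or assemble with those that do. Ifit1 was at 44.7, 23.6 and 23.9 CPM in RAG1-/- and at 33.1, 33.0 and 32.4 CPM in RAG1-/- Sgo1-/+ (log2 fold change 0.08 with SE 0.24, edgeR adjusted *P*=0.972). The high RAG1-/- value was that of replicate 1, the library with high Xist, and without it the 3 RAG1-/- Sgo1-/+ libraries lay above the remaining 2. Ifit3 was at 132.8, 96.8 and 103.4 CPM against 139.0, 99.3 and 111.7 CPM (log2 fold change 0.07 with SE 0.17, edgeR adjusted *P*=0.963). Ifit2 lay between 27.5 and 36.4 CPM, and Eif2ak2, the RNA-activated kinase PKR, between 21.6 and 29.7 CPM.

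Several oligoadenylate synthetases, enzymes that make the messenger activating RNase L, differed by over 2-fold between libraries of 1 genotype. Oas2 had 184, 22 and 34 counts in RAG1-/- and 14, 61 and 56 in RAG1-/- Sgo1-/+, which are 19.6, 4.44 and 5.15 CPM against 2.83, 11.3 and 17.5 CPM. Its range was 4.42-fold within RAG1-/- and 6.18-fold within RAG1-/- Sgo1-/+. The log2 fold change of Oas2 was 0.04 (with SE 0.66, edgeR adjusted *P*=0.996). Oas1a was at 9.82, 4.85 and 4.84 CPM against 4.04, 10.003 and 16.8 CPM, with the same libraries high and low. Oas3 (4 to 22 counts), Oasl1 (2 to 28 counts) and Oasl2, a relative (39.6 to 70.2 CPM), were lowest in replicate 4 and highest in replicate 6. Oas1a, Oas1b, Oas1c and Oas1g are close paralogs, and how reads that match several of them were counted is not given in the sources used here.

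The effectors at entry, nucleotide supply and release held the most abundant members. Ifitm3, which blocks viral fusion, was at 157.6, 167.7 and 187.3 CPM in RAG1-/- and at 174.7, 172.3 and 200.3 CPM in RAG1-/- Sgo1-/+ (log2 fold change 0.09 with SE 0.13, edgeR adjusted *P*=0.919). Samhd1, the dNTP hydrolase, was at 191.0, 169.5 and 174.2 CPM against 177.4, 188.0 and 204.9 CPM (log2 fold change 0.09 with SE 0.12, edgeR adjusted *P*=0.914). Both were level, with the groups overlapping. Bst2, or tetherin, lay between 50.3 and 79.9 CPM, and Rsad2, or viperin, between 7.27 and 17.8 CPM. Cmpk2, a nucleotide kinase encoded next to Rsad2, was at 38.5, 29.1 and 35.1 CPM against 25.5, 34.3 and 24.3 CPM, and its groups overlapped through replicate 5. The log2 fold change of Cmpk2 was -0.29 (with SE 0.18, edgeR adjusted *P*=0.848). Without RAG1-/- Sgo1-/+ replicate 5 it lay lower without overlap, as did 10.6% of tested genes. In that fit it was the only member lower at an unadjusted *P* under 0.05 in edgeR's test, beside 2.57% of all tested genes.

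Per kb of exon, Ifitm3 had by far the highest level of the 43 members with a length (mean 261 CPM per kb over the 6 libraries). Ifi27 (80.4 CPM per kb), Bst2 (78.0) and Ifit3 (65.2) followed, and Ifi35 (53.2) and Lgals3bp (45.3) came next. Oas3 had the lowest at 0.37 CPM per kb. Mx1 had no length in the annotation and is left out of this order.

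The GTPases were the role with the widest spread among the RAG1-/- Sgo1-/+ libraries. These proteins disrupt the vacuoles of intracellular pathogens (Gbp2, Gbp3, Igtp, Irgm1) or block viral nucleocapsids (Mx1, Mx2). Their mean log2(CPM + 1) came to 4.35, 4.55 and 4.70 in RAG1-/- against 3.97, 4.61 and 5.28 in RAG1-/- Sgo1-/+ (SD 0.18 against 0.65, *n*=3 each). Igtp was at 32.1, 40.0 and 42.7 CPM against 27.1, 58.5 and 67.4 CPM (log2 fold change 0.41 with SE 0.28, edgeR adjusted *P*=0.855). Irgm1, a regulator of the other immunity-related GTPases, was at 58.2, 64.7 and 54.9 CPM against 38.0, 63.9 and 96.7 CPM (log2 fold change 0.15 with SE 0.27, edgeR adjusted *P*=0.947). In both, replicate 4 lay below the whole RAG1-/- range and replicate 6 above it, a 2.49-fold and a 2.55-fold span within the group. Without replicate 6 the log2 fold change was 0.17 for Igtp and -0.21 for Irgm1.

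Mx1 was at 4.48, 3.64 and 5.15 CPM against 2.02, 2.96 and 16.2 CPM. Here replicates 4 and 5 both lay below the whole RAG1-/- range and replicate 6 above it. The log2 fold change of Mx1 was 0.59 (with SE 0.67, edgeR adjusted *P*=0.902), and without replicate 6 it was -0.82. Mx2 ran from 1.21 CPM in replicate 4 to 5.30 CPM in replicate 6. Gbp2 was at 57.3, 87.9 and 106.1 CPM against 76.2, 82.1 and 106.4 CPM, with the lowest value in RAG1-/- replicate 1 (log2 fold change 0.07 with SE 0.22, edgeR adjusted *P*=0.972). Gbp3 was likewise low in RAG1-/- replicate 1 and RAG1-/- Sgo1-/+ replicate 4 (24.9 and 25.3 CPM) and between 40.9 and 44.8 CPM in the other libraries. All 4 GTPase genes with a promoter window held the ISRE core printed above.

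**Figure D4:**
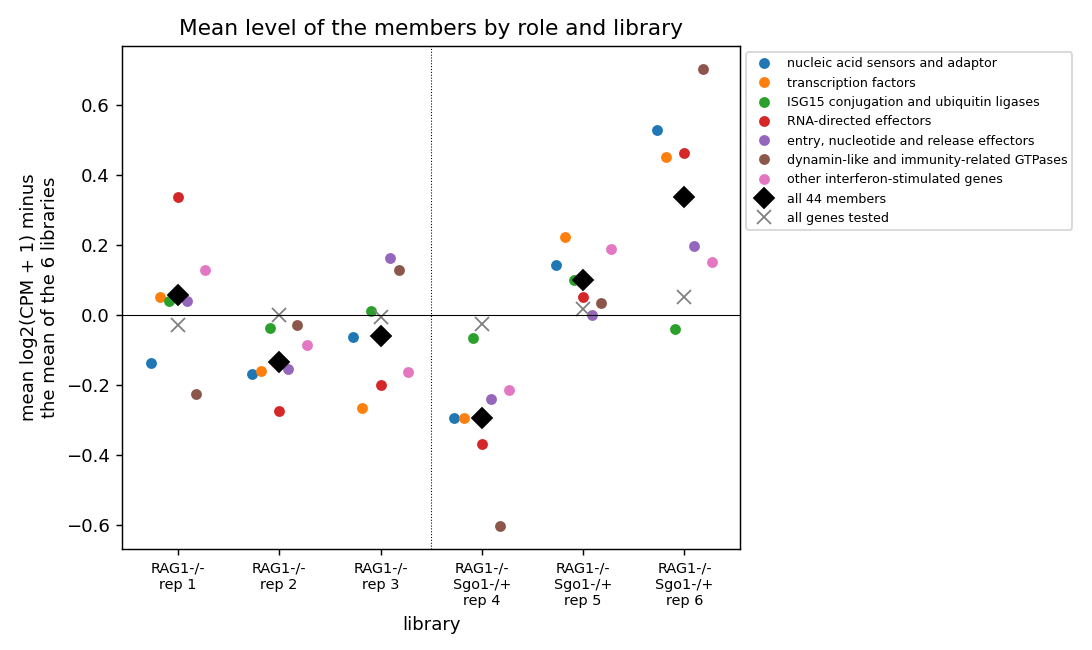
Mean log2(CPM + 1) of the members of each role in each library, minus the mean of the 6 libraries. The GTPases move from the lowest point in RAG1-/- Sgo1-/+ replicate 4 to the highest in replicate 6, the ISG15 group stays near 0, and the crosses for all tested genes move little.

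The remaining interferon-stimulated genes held the other 2 members that passed the unadjusted threshold. Parp14, a mono-ADP-ribosyltransferase, was at 82.7, 81.8 and 74.3 CPM in RAG1-/- and at 85.3, 110.2 and 108.9 CPM in RAG1-/- Sgo1-/+. Its groups did not overlap, and the log2 fold change was 0.35 (with SE 0.14, edgeR adjusted *P*=0.832, and *P*=0.1 by exact permutation). Lgals3bp, a secreted glycoprotein that binds galectins, was at 99.7, 76.2 and 73.8 CPM against 94.7, 119.1 and 169.4 CPM. Its log2 fold change was 0.61 (with SE 0.21, edgeR adjusted *P*=0.832, and *P*=0.2 by exact permutation), and the groups overlapped through RAG1-/- replicate 1. Without RAG1-/- replicate 2 or 3, or without RAG1-/- Sgo1-/+ replicate 6, neither passed the unadjusted threshold, and without RAG1-/- Sgo1-/+ replicate 5 Parp14 did not.

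None of the other members of this group passed the unadjusted threshold. Xaf1, an antagonist of the apoptosis inhibitor XIAP, was at 51.6, 64.0 and 76.9 CPM against 73.9, 92.1 and 77.0 CPM (log2 fold change 0.34 with SE 0.17, edgeR adjusted *P*=0.832). Ifi27, a mitochondrial protein, was at 92.0, 80.8 and 77.6 CPM against 81.6, 86.7 and 75.8 CPM (log2 fold change -0.04 with SE 0.13, edgeR adjusted *P*=0.976). Ifi35 was at 78.8, 69.9 and 63.1 CPM against 67.5, 78.2 and 77.0 CPM (log2 fold change 0.07 with SE 0.13, edgeR adjusted *P*=0.950). The groups overlapped in all 3. Without RAG1-/- replicate 3, Xaf1 had a log2 fold change of 0.49, passed the unadjusted threshold and no longer overlapped. Ifi44 (5.25 to 13.7 CPM) and Rtp4 (16.0 to 38.0 CPM) were highest in RAG1-/- replicate 1 and lowest in RAG1-/- Sgo1-/+ replicate 4.

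Transcripts of the interferons themselves were nearly absent from the counts. Of 20 ligand genes, 18 had 0 counts in all 6 libraries, Ifnb1, which encodes interferon beta, among them. If each count is an independent read, a count of 0 allows up to 3 counts, or 0.320 to 0.936 CPM depending on the library. Where both mates of a pair were counted, this bound is too low. How reads that match several ligand genes were counted is not given in the sources used here. Ifng, the product of NK and T cells that induces the Gbp and immunity-related GTPases, had 0, 0 and 4 counts in RAG1-/- and 0, 2 and 2 in RAG1-/- Sgo1-/+. Ifnz had 0 to 4 counts. No difference in ligands was detectable in these counts.

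The receptors and kinases were expressed in every library. At an unadjusted *P* under 0.05, 2 of 12 were higher (3.15% of all tested genes) and 0 lower (2.52%). The number higher depended on the setting. It was 1 with TMM, DESeq2 size factors or limma-voom, and 0 with the DESeq2 test (1.86% of all tested genes). It was also 0 without RAG1-/- replicate 2 (1.81%) or replicate 3 (1.84%), and 1 or 2 without any other single library. Tyk2, a kinase at the type I interferon receptor, was at 42.2, 38.4 and 38.9 CPM in RAG1-/- and at 52.9, 47.4 and 48.3 CPM in RAG1-/- Sgo1-/+ (log2 fold change 0.31 with SE 0.13, edgeR adjusted *P*=0.832, and *P*=0.1 by exact permutation). Socs3, a feedback inhibitor of JAK signalling, was at 48.7, 52.9 and 45.6 CPM against 56.6, 53.7 and 88.6 CPM (log2 fold change 0.43 with SE 0.19, edgeR adjusted *P*=0.832, and *P*=0.1 by exact permutation). The groups did not overlap in either. Without replicate 6 the log2 fold change of Socs3 was 0.17. The receptor subunit genes Ifnar1 (61.6 to 85.7 CPM) and Ifnar2 (54.0 to 84.5 CPM) overlapped between the groups.

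Of 22 further sensing genes, 0 passed the unadjusted threshold in either direction (3.15% of all tested genes were higher and 2.52% lower). Their log2 fold changes were positive in 21 of 22, beside 54.9% of all tested genes, and in 14 of 22 without RAG1-/- Sgo1-/+ replicate 6, beside 52.6%. Tlr7, the endosomal sensor of single-stranded RNA, was at 12.4, 7.07 and 5.75 CPM against 10.5, 12.97 and 18.4 CPM, and Unc93b1, which carries such receptors to endosomes, at 61.0, 68.5 and 55.2 CPM against 53.7, 88.5 and 106.1 CPM. Rnaseh2c, a subunit of RNase H2, was at 15.1, 12.7 and 13.2 CPM against 22.2, 19.8 and 14.3 CPM. In all 3 genes 1 library kept the groups overlapping.

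Among 39 further interferon-stimulated genes, 0 were higher and 1 was lower at an unadjusted *P* under 0.05, beside the same shares of 3.15% and 2.52%. Of their log2 fold changes 28 of 39 were positive (54.9% of all tested genes), and 24 of 39 without replicate 6 (52.6%). The lower one was Ifi27l2a, a relative of Ifi27, at 83.2, 41.2 and 43.3 CPM in RAG1-/- and 29.1, 27.8 and 18.1 CPM in RAG1-/- Sgo1-/+. Every RAG1-/- Sgo1-/+ library lay below every RAG1-/- library, with a log2 fold change of -1.15 (with SE 0.29, edgeR adjusted *P*=0.832, and *P*=0.1 by exact permutation). Without RAG1-/- replicate 1 it was -0.74. Cxcl9, a chemokine induced by interferon gamma, had 90 counts in replicate 5 and 6 to 16 elsewhere.

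Markers of other cell types moved with some of these libraries, and their part in the results was not tested. Over 6 monocyte and macrophage markers the sum was 491 CPM in RAG1-/- Sgo1-/+ replicate 6 and 264 to 299 CPM in the other 5 libraries. Of these markers, 2 were highest in replicate 6, Cd68 (63.0 CPM, others 6.06 to 16.2) and Mrc1 (250.5 CPM, others 73.4 to 104.1), while Csf1r was lowest there (73.0 CPM, others 74.6 to 96.6). Replicate 6 also had the lowest sums over 5 alveolar epithelium markers (21734 CPM, others 25278 to 32452) and 4 endothelium markers (991 CPM, others 1230 to 1282). Among these single markers, Sftpb, Sftpa1, Ager and Tie1 were not lowest in replicate 6. Over 4 neutrophil markers, of which Ly6g had 0 counts in every library, the sum was 102, 58.2 and 86.1 CPM in RAG1-/- and 16.6, 45.2 and 39.3 CPM in RAG1-/- Sgo1-/+. Every RAG1-/- Sgo1-/+ sum lay below every RAG1-/- sum, with the lowest in replicate 4. Among the single markers only S100a9 had no overlap, while S100a8 and Retnlg overlapped. Of all tested genes, 5.54% had no overlap in this direction. Over 4 natural killer cell markers it was 45.6, 14.1 and 36.0 CPM against 19.4, 21.3 and 10.6 CPM. Plasmacytoid dendritic cells are the main makers of type I interferon. Over 5 of their markers the sum was 198, 225 and 215 CPM against 193, 186 and 166 CPM. Most of it was Tcf4 (143.8 to 206.9 CPM), where every RAG1-/- Sgo1-/+ library lay below every RAG1-/- library. The groups overlapped in Siglech (2 to 15 counts, 0.62 to 2.27 CPM) and Cox6a2 (15.6 to 22.4 CPM). They also overlapped in Ccr9 and Klk1, which had few counts, and Ccr9 had the higher mean in RAG1-/- Sgo1-/+.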

How the data were processed

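Total RNA from normal-looking lung was made into TruSeq V2 libraries and sequenced as pairs on a MiSeq. The authors deposited a table of raw read counts for 25860 genes, made with GeneSifter on mouse Build 37.2. The submitters' processing notes name BWA and edgeR without versions or settings. Each library stood in 2 identical columns, and the first was used (6 not used). In each library 63.5 to 69.0% of non-zero values were even. A deposited list of the authors' own comparison and ontology entries was not used.

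Entrez Gene IDs were matched to symbols for 24048 genes (93.0%). CPM are counts scaled to a library total of 1000000. Genes with at least 10 counts over the 6 libraries were fitted with edgeR 4.0.16 (quasi-likelihood, R 4.3.3, total count as library size, prior count 0.125), and *P* values were adjusted by Benjamini and Hochberg over all 17231 genes. The SE is the log2 fold change over the square root of F. Exact permutation tests were two-sided on CPM, with a smallest *P* of 0.1. Counts and intervals of 0 cover counting error only, and both mates of a pair may have been counted.

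The members, roles and lists were chosen with earlier results of these data known. Full values were given for members with an unadjusted *P* under 0.05, those without overlap, the 10 with the highest mean CPM, and Irf7, Isg15, Ddx58, Ifih1, Mb21d1, Tmem173, Zbp1 and Ifit1. Cmpk2, Igtp, Irgm1, Mx1, Oas2 and Stat2 were added after their values were seen. At most 5 genes per further list, those of lowest *P*, were to be named, with Ifnb1, Ifng, Ifnar1, Ifnar2 and Ifnz added after. Lengths are merged exons of GENCODE M21 on GRCm38, and promoters are of RefSeq on GRCm38.p6, a later build than that of the counts. Alternatives were TMM, DESeq2 size factors, no filter, filterByExpr, DESeq2 1.42.0, limma-voom (limma 3.58.1), other means for the set, and each library left out.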

Additional observations from a re-analysis of the deposited data

How the results depend on the processing

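No member was called under any alternative, among 43 tested with filterByExpr and 44 in the others. Of 351 log2 fold changes of the 27 genes followed, 322 kept their sign, and 16 genes kept it throughout. The median of the members and the mean difference in log2 CPM moved by less than the spread between libraries (0.24). That spread is wider than either value (0.07 and 0.09), so a change of sign can fall within it. Both were negative without RAG1-/- Sgo1-/+ replicate 6. The median ran from 0.04 to 0.08 over other scalings, filters and tests. With 1 library left out, the median ran from -0.02 to 0.15 and the mean difference from -0.05 to 0.26. Members higher at an unadjusted *P* under 0.05 then numbered 1 to 9, those lower 0 to 1, those without overlap upwards 3 to 13 and those without overlap downwards 0 to 4. With RAG1-/- replicate 2 and RAG1-/- Sgo1-/+ replicate 6 left out together, and RAG1-/- replicate 1 kept, 0 were higher at that threshold. In that setting 6 had no overlap downwards, beside 15.3% of all tested genes. The signs turned there for Zbp1 (-0.020), Ifit1 (-0.063), Oas2 (-0.82), Mx1 (-0.94), Gbp2 (-0.042) and Irgm1 (-0.15). They also turned for Oas2 with TMM (-0.0020) and limma-voom (-0.21), and for Mx1 with limma-voom (-0.17). With 1 library left out, the log2 fold changes that turned ran over these ranges: Isg15 -0.18 to 0.16, Gbp2 -0.14 to 0.28, Ifi27 -0.087 to 0.041, Ifit1 -0.073 to 0.47, Ifit3 -0.077 to 0.22, Oas2 -0.50 to 1.09, Ifi35 -0.0045 to 0.16, Tmem173 -0.034 to 0.58, Mx1 -0.82 to 1.05 and Irgm1 -0.21 to 0.43. The cause was not tested. The shallowest library had 3205822 counts, and Oas3, Oasl1 and Mx2 rested on few counts. No paired analysis was possible because the groups share no replicate number.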
